A study of Mus musculus with 12 samples.

Results

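The genes described here are 10 members of the bone morphogenetic protein (BMP) pathway and its Id targets: the ligand genes Bmp3 and Bmp4, the secreted antagonist gene Grem1, the receptor genes Bmpr1a and Bmpr2, the signal transducer genes Smad1 and Smad5, and the target genes Id1, Id2 and Id3. They were listed by name, with earlier results of these data known, and 10 of 10 were among the 13233 genes with deposited values. RNA-Seq was performed on primary skeletal muscle fibroblasts, which the study calls hernia-associated fibroblasts (HAFs), cultured from the lower abdominal muscle (LAM) of Aromhum mice. The 12 samples formed 4 groups of 3, all treated for 48 h: vehicle (ethanol and DMSO), estradiol (E2) at 10 nM, E2 plus fulvestrant at 10 nM and 100 nM, and fulvestrant alone at 100 nM. Fulvestrant is an antagonist of estrogen receptors that also leads to loss of estrogen receptor-α (ESR1) protein. Every group carried the same transgene, the human aromatase gene with its own promoters on a bacterial artificial chromosome, so no group lacked it. The cells were starved overnight and then kept in medium with charcoal-stripped serum, which is low in steroid hormones. The study used male mice, and the labels give no age for the cells' donors. The labels do not say that replicates came from separate animals or cultures, so the p-values measure only the spread between these samples, which may be technical.

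BMPs are secreted dimers of the TGF-β superfamily. They bind a type II receptor such as BMPR2 and a type I receptor such as BMPR1A, which then phosphorylates SMAD1 and SMAD5. These enter the nucleus with SMAD4 and switch on target genes, among which Id1, Id2 and Id3 are widely used readouts. Id proteins bind E proteins, a class of basic helix-loop-helix transcription factors, and keep them off DNA. Gremlin 1, the product of Grem1, binds BMP2 and BMP4 outside the cell and blocks them. In skeletal muscle, BMP signals act on myogenic progenitors and on the mesenchymal cells between the fibers, and Grem1 is a known marker of muscle fibroblasts and fibro-adipogenic progenitors.

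Values are normalized counts, which are reads per gene divided by one factor per sample. Each sample had between 18827792 and 44040507 reads on these genes, with a median of 31703872. The effect of treatment was checked on Pgr, the progesterone receptor gene and a classical E2 target. Its normalized count was 25.4, 85.3 and 104 with vehicle, 145, 268 and 304 with E2, 14.8, 28.4 and 27.0 with E2 plus fulvestrant, and 13.0, 21.5 and 16.2 with fulvestrant, in the order of replicates 1, 2 and 3. Of the fibroblast markers 9 of 9 were listed, and of myogenic, adipocyte and epithelial markers 0 of 7, 0 of 4 and 0 of 3. The table lists only genes with at least 10 reads in every sample. Of the markers of other cells, 1 of 5 endothelial (Tek), 1 of 4 immune (Cd68) and 3 of 4 mural ones (Cspg4, Myh11 and Notch3) were listed.

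The samples numbered 1 stood apart from those numbered 2 and 3 in all 4 groups. With the treatment group held fixed, 52.4% of all genes were called between replicate 1 and the mean of replicates 2 and 3 (limma's moderated test, adjusted p under 0.05 and fold over 1.2, the same rule as for every call below). The same was true of 5 of 10 members. Bmp3 was higher in replicate 1 by 3.54 on the log2 scale (SE 0.24, adjusted p = 2.9e-07), or 11.6-fold, and Grem1 was lower, with a log2 difference of -5.09 (SE 0.22, adjusted p = 1.2e-08), or 34.1-fold. Id2 was higher by 1.198 (adjusted p = 1.4e-06) and Bmpr2 by 0.29 (adjusted p = 0.0039), and Smad1 was lower, at -0.50 (adjusted p = 1.5e-06). Bmp4, Bmpr1a, Smad5, Id1 and Id3 did not pass. The summed mural markers were 3506 to 4439 in the 4 samples numbered 1 and 1940 to 2625 in the other 8, and Cspg4, at 1858 to 4255 over the 12 samples, made up most of each sum. Tek was 58.5 to 83.7 and 157 to 276.5, respectively. The summed fibroblast markers (377600 to 497000 and 297800 to 447600) and Cd68 (49.6 to 66.3 and 28.2 to 111.5) overlapped. Highly expressed genes such as Col1a2 (92400 to 266300 over the 12 samples) weighed most in the fibroblast sum. It therefore says little about lower ones such as Thy1, which ranged from 36.9 to 562. The part of these cells in the differences was not tested. What set the samples numbered 1 apart is not given in the labels, and this contrast was chosen after the values were seen. The replicate number was a block in the fit reported for the treatments, and values from the fit without that block are given beside it.

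The 250 bases before the RefSeq start sites of Bmp4 and Grem1 are shown, since Bmp4 was the member called in both comparisons with fulvestrant and Grem1 is its antagonist, with the largest difference between replicate 1 and the others among the members (GRCm38.p6, both genes on the minus strand, printed 5′ to 3′ along the gene). Capitals mark matches, on either strand, to GGCGCC and CAGAC, which are motifs bound by SMAD proteins, and to GGTCA, the half-site of the estrogen response element.

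Bmp4, chr14:46390670-46390919: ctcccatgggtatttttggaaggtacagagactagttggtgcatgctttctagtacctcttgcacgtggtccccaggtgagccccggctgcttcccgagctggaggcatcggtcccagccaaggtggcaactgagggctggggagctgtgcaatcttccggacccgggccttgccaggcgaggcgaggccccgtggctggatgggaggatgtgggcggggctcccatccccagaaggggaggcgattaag

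Grem1, chr2:113758649-113758898: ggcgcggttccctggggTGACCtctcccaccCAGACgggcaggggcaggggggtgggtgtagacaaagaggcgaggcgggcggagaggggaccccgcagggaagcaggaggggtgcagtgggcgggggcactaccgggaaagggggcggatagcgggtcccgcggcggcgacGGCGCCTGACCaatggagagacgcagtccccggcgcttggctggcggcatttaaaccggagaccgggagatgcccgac

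The Grem1 window held GGCGCC at -78 to -73, CAGAC at -219 to -215 and GGTCA at -233 to -229 and at -72 to -68 from the start site, and none of these overlapped another. The Bmp4 window held no match to these letters. Of 32851 windows of the same length, 9.59% held GGCGCC, 42.2% held CAGAC and 35.2% held GGTCA. The palindromic estrogen response element, which joins a pair of such half-sites, was in 0.0639% of windows and in none of the members' windows. Of 10 members, 8 had a window in the table, all but Bmp3 and Id1. These matches describe the letters and are not evidence of binding.

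The levels of the members differed widely. Per kilobase of exon, the median normalized count over the 12 samples was 1290 for Bmpr1a, 995.5 for Id3, 609 for Grem1, 472 for Id1, 469.5 for Smad5, 444.3 for Bmpr2, 294 for Bmp4, 243.5 for Id2, 239 for Smad1 and 9.69 for Bmp3. Bmpr1a stayed within 1193 to 1403 per kilobase, and Id3 ranged from 627 to 1706. Bmpr1a was above Id3 in 10 of 12 samples, all but vehicle replicates 1 and 2. The ranges of Id1 (298 to 1029), Smad5 (420.2 to 535) and Bmpr2 (354 to 531) overlapped, so the order of these genes is not resolved, and the same holds for Bmp4 (162 to 492), Id2 (155 to 807) and Smad1 (162 to 269). Grem1 ranged from 584 to 1117 per kilobase in replicates 2 and 3, which placed it next to Id3, and from 16.2 to 34.7 in replicate 1. Bmp3 ranged from 4.13 to 13.3 in replicates 2 and 3 and from 38.6 to 195 in replicate 1, where it lay above Grem1. Id2 ranged from 155 to 287 and from 306.5 to 807, respectively.

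**Figure D1:**
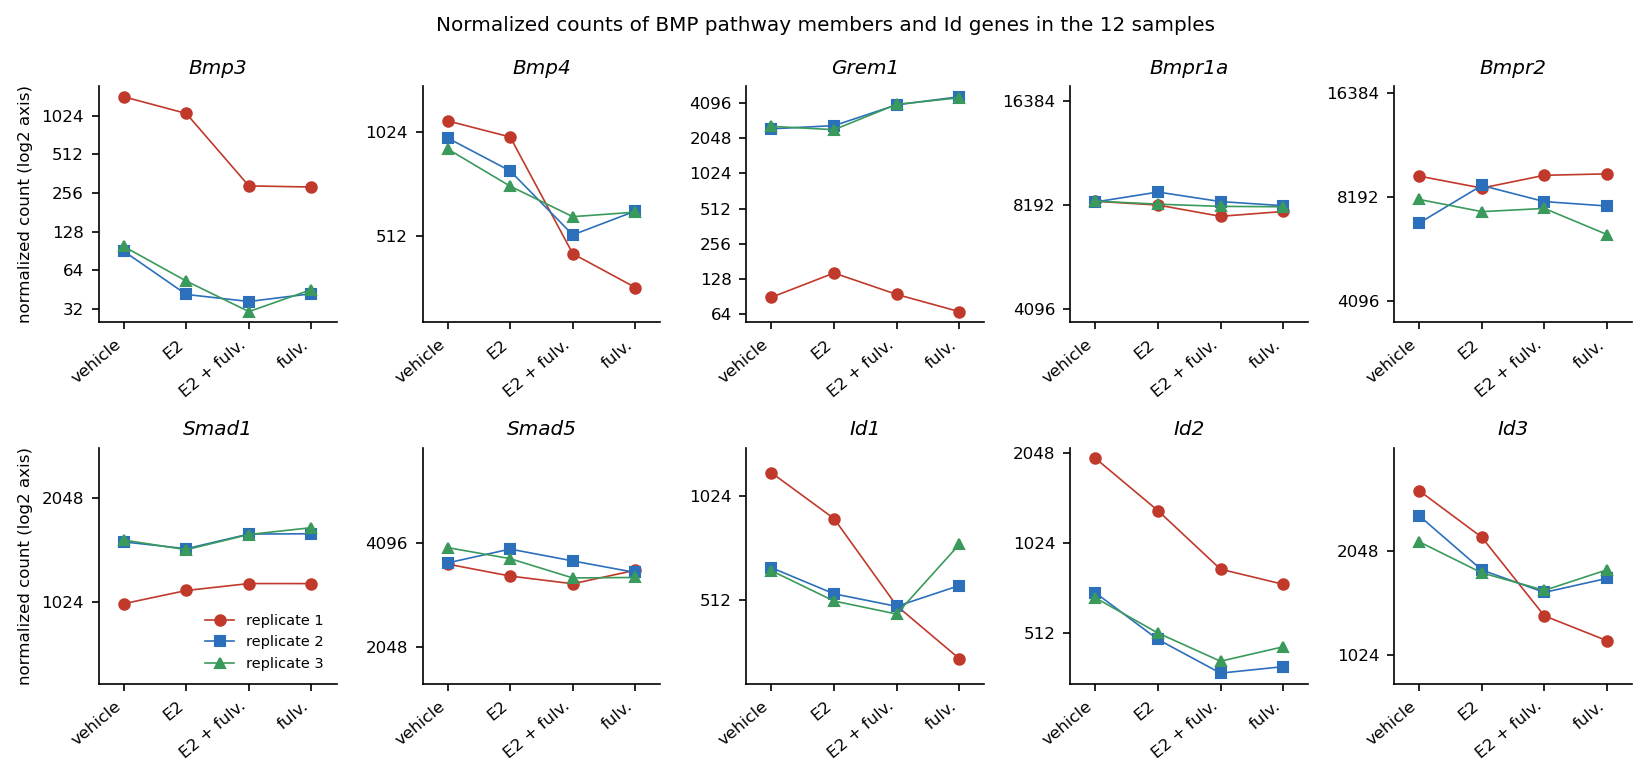
Normalized count of each of the 10 members (log2 axis, with a different range in each panel) in the 12 samples. Each point is 1 sample, and lines join samples with the same replicate number without implying an order of treatments. In Bmp3 and Grem1 the samples numbered 1 lie far from the rest, Bmp4 and Id3 are lower with fulvestrant, with or without E2, and Bmpr1a is nearly level at 7578 to 8910.

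The study's main RNA-Seq comparison was of E2 plus fulvestrant against E2. With fulvestrant added to E2, 1 of 10 members passed: Bmp4 fell. This count is near the share over all genes, of which 9.6% passed in either direction and 4.62% fell (4.97% rose). With fulvestrant alone against vehicle, 4 of 10 members fell, the ligand genes Bmp3 and Bmp4 and the target genes Id2 and Id3, and 0 rose. Among all genes 12.5% passed, 5.69% fell and 6.76% rose in that comparison. The receptor and Smad genes passed in neither. The median log2 change of the 10 members was -0.24 with E2 plus fulvestrant against E2 and -0.36 with fulvestrant against vehicle, beside 0.01 and 0.01 over all genes.

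Without the replicate block, 0 of 10 members passed in either comparison, where 0.521% and 0.544% of all genes did. At an unadjusted p under 0.05 that fit held 1 member with E2 plus fulvestrant against E2 and 2 with fulvestrant against vehicle, beside 7.22% and 7.65% of all genes. The fit with the block held 3 and 5, beside 27.3% and 30.5% of all genes. The groups did not overlap in the normalized counts of 3 of 10 members (Bmp4, Id1 and Id3) between E2 plus fulvestrant and E2, beside 12.5% of all genes. Between fulvestrant and vehicle they did not overlap for 4 of 10 (Bmp4, Bmpr1a, Smad5 and Id3), beside 11.1% of all genes. In these bulk samples fewer cells of one type and less RNA per cell cannot be told apart. Of the 14 listed markers, 4 passed in each comparison. Col1a1 fell by 0.67 and 0.43, Lum fell by 1.31 and 1.18 and Esr1 fell by 2.26 and 1.46 on the log2 scale with E2 plus fulvestrant against E2 and with fulvestrant against vehicle. Col1a2 fell by 0.53 in the first and Notch3 fell by 0.85 in the second. Not every marker of these lists fell. In the second comparison Vim was at 0.29 (adjusted p = 0.0552), Myh11 at 1.255 (adjusted p = 0.0562) and Cspg4 at 0.02, and none of these passed. Without the block no listed marker passed in either comparison, with adjusted p of 0.0925 and 0.363 for Esr1. The part of these shifts in the members' values was not tested.

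**Figure D2:**
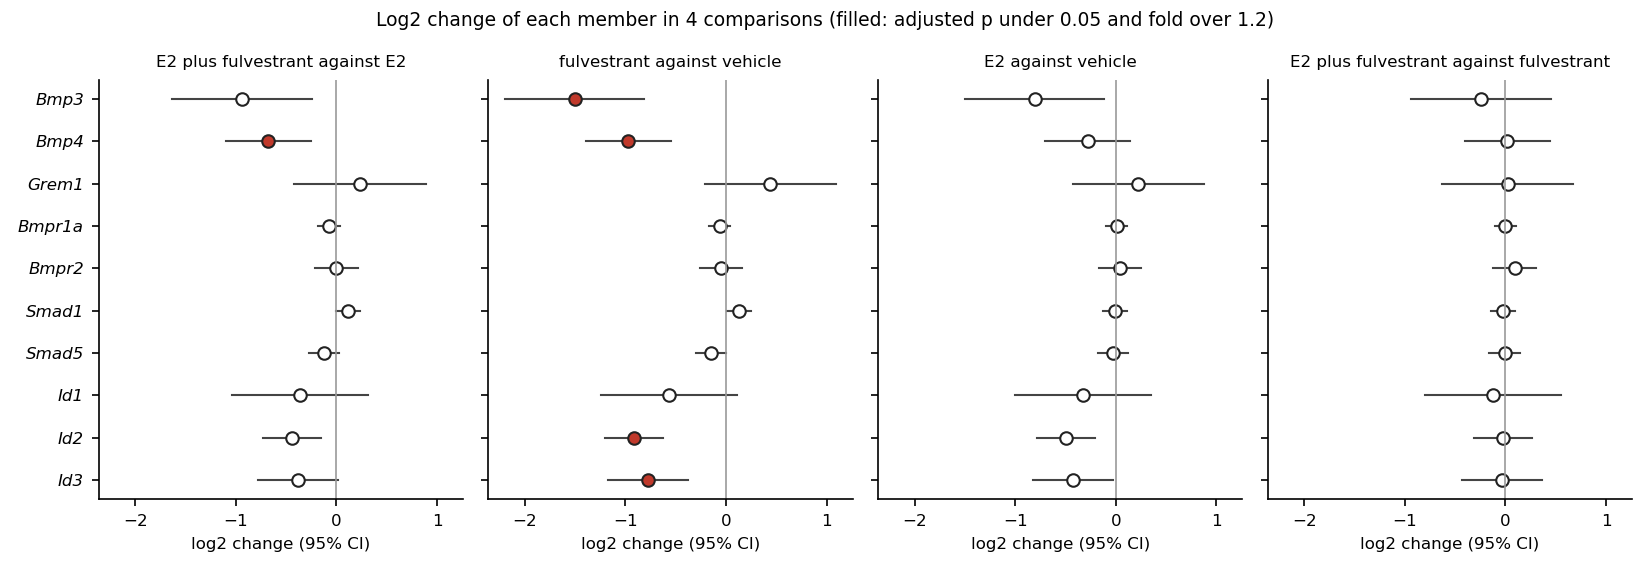
Log2 change of the 10 members in 4 comparisons of treatment groups (3 samples each, all 12 samples in 1 fit with the replicate number as a block). Points are estimates, bars are 95% confidence intervals, and filled points passed at adjusted p under 0.05 and fold over 1.2. Bmp4 is filled in both comparisons with fulvestrant, Bmp3, Id2 and Id3 are filled with fulvestrant against vehicle, and no point is filled in the other panels.

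Bmp4 (ENSMUSG00000021835, chr14:46383520-46390669, minus strand, GRCm38) encodes a ligand that drives bone, gut and limb development. Its normalized count was 1106, 987 and 917 with vehicle in replicates 1, 2 and 3, and 993, 792 and 715 with E2. It was 456, 517 and 584 with E2 plus fulvestrant, and 364, 606 and 602 with fulvestrant. Every sample with fulvestrant lay below every sample without it, so the groups did not overlap.

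Bmp4 fell by 0.68 on the log2 scale with E2 plus fulvestrant against E2 (SE 0.19, 95% confidence interval -1.10 to -0.25, adjusted p = 0.0438), or 1.598-fold. Without the block the change had an adjusted p of 0.334. The call was also lost on leaving out any single library of the E2 or the E2 plus fulvestrant group, vehicle replicate 2 or 3, or all samples numbered 2 or 3 (adjusted p = 0.0504 to 0.227), and without a variance trend in the fit (adjusted p = 0.0914). Leaving out all samples numbered 1 gave a log2 change of -0.45 (adjusted p = 0.00991). With fulvestrant against vehicle Bmp4 fell by 0.97 (SE 0.19, interval -1.39 to -0.55, adjusted p = 0.00713, and 0.0879 without the block), or 1.96-fold. That call was lost without the samples numbered 2 (adjusted p = 0.0654). The difference was in the same direction in 3 of 3 pairs in each comparison, at -1.12, -0.61 and -0.29 for replicates 1, 2 and 3 with E2 plus fulvestrant against E2 and at -1.60, -0.70 and -0.61 with fulvestrant against vehicle.

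Bmp3 (ENSMUSG00000029335, chr5:98854415-98884396, plus strand) encodes an unusual BMP that opposes the bone-forming members. Its normalized count was 1442.5, 90.5 and 98.4 with vehicle, and 1068, 41.6 and 52.9 with E2. It was 291.5, 36.7 and 30.6 with E2 plus fulvestrant, and 286, 42.2 and 45.4 with fulvestrant. The samples numbered 1 were the highest in every group, and outside them the counts were low.

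Bmp3 fell by 1.505 on the log2 scale with fulvestrant against vehicle (SE 0.31, interval -2.20 to -0.81, adjusted p = 0.00934), or 2.84-fold, and was lower in 3 of 3 pairs. The adjusted p was 0.957 without the block and 0.0895 without the samples numbered 3. Without the samples numbered 1 the log2 change was -1.09 (adjusted p = 0.00979). With E2 plus fulvestrant against E2 the change was -0.94 (SE 0.31, adjusted p = 0.0787), again lower in 3 of 3 pairs. It passed without fulvestrant replicate 1 (adjusted p = 0.0302). It was -0.47 without the samples numbered 1 and -0.52 without E2 replicate 1. Within the pairs it was -1.87, -0.18 and -0.77 for replicates 1, 2 and 3.

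Grem1 (ENSMUSG00000074934, chr2:113746164-113758646, minus strand) changed in opposite directions by replicate number. Its normalized count was 89.3, 2464 and 2586 with vehicle, and 144, 2623 and 2422 with E2. It was 94.5, 3950.3 and 3988 with E2 plus fulvestrant, and 67.3, 4633 and 4541 with fulvestrant. In replicates 2 and 3 both samples of each fulvestrant group exceeded those without fulvestrant, and in replicate 1 the fulvestrant samples were below their partners. The direction in replicate 1 rested on 1 sample per group and few reads. These were 81 with vehicle, 146 with E2, 96 with E2 plus fulvestrant and 62 with fulvestrant.

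Across all 12 samples the log2 change of Grem1 was 0.24 (SE 0.30, adjusted p = 0.654) with E2 plus fulvestrant against E2 and 0.44 (SE 0.30, adjusted p = 0.353) with fulvestrant against vehicle, and neither passed. With the samples numbered 1 left out, Grem1 rose by 0.65 (adjusted p = 6.8e-05) and by 0.86 (adjusted p = 9.4e-06). It also rose with fulvestrant against vehicle when fulvestrant replicate 1 alone was left out (0.87, adjusted p = 0.0211). With E2 plus fulvestrant against E2, Grem1 was at 0.67 without E2 replicate 1 and did not pass (adjusted p = 0.0938). It was at 0.05 without E2 replicate 2 and at -0.01 without E2 replicate 3. Over the 15 fits that left out a library or a replicate number its change ranged from -0.01 to 0.67 in that comparison and from 0.20 to 0.87 with fulvestrant against vehicle. Within the pairs the difference was -0.60, 0.59 and 0.72 for replicates 1, 2 and 3 with E2 plus fulvestrant against E2, and -0.40, 0.91 and 0.81 with fulvestrant against vehicle.

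The balance of ligand to antagonist transcript can be read from their ratio per exon length. The ratio of Bmp4 to Grem1 was 0.739 and 0.655 with vehicle in replicates 2 and 3, 0.557 and 0.545 with E2, 0.242 and 0.270 with E2 plus fulvestrant, and 0.241 and 0.245 with fulvestrant. In these samples Grem1 transcripts exceeded Bmp4 transcripts throughout, and more so with fulvestrant. In replicate 1 the ratio was 22.9 with vehicle, 12.7 with E2, 8.90 with E2 plus fulvestrant and 9.97 with fulvestrant. The ratio was lower with fulvestrant in 3 of 3 pairs of each comparison. It is given as a description, with no test, since both genes were described above.

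The receptor genes were among the steadiest members. Bmpr1a (ENSMUSG00000021796, chr14:34410734-34503341, minus strand), the type I receptor gene, had a normalized count of 8379, 8339 and 8385 with vehicle and of 7827, 8134 and 8076 with fulvestrant. These groups did not overlap, yet the log2 change was -0.06 (SE 0.05, interval -0.17 to 0.04, adjusted p = 0.423). Between E2 (8170.1, 8910.4 and 8219) and E2 plus fulvestrant (7578, 8362 and 8098) it was -0.07 (SE 0.05, interval -0.18 to 0.03, adjusted p = 0.355). Bmpr2 (ENSMUSG00000067336, chr1:59763400-59879014, plus strand), the type II receptor gene, ranged from 6369 to 9545 over the 12 samples. Its log2 change was 0.00 (interval -0.21 to 0.21) with E2 plus fulvestrant against E2 and -0.05 (interval -0.26 to 0.16) with fulvestrant against vehicle. For both receptors these intervals hold changes of about the 1.2-fold threshold or less.

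The transducers moved little as well. Smad1 (ENSMUSG00000031681, chr8:79338395-79399518, minus strand) was at 1012, 1529 and 1548 with vehicle, 1106, 1461 and 1452 with E2, 1158, 1611 and 1606 with E2 plus fulvestrant, and 1158, 1614 and 1682 with fulvestrant. It was higher in 3 of 3 pairs in each comparison with fulvestrant. The log2 changes were 0.12 (SE 0.05, adjusted p = 0.190) and 0.13 (SE 0.05, adjusted p = 0.131), and neither passed. Smad5 (ENSMUSG00000021540, chr13:56703010-56742377, plus strand) ranged from 3118 to 3969 over the 12 samples, and 1.35% of its exon sequence is shared with Gm27301. It was lower in 3 of 3 pairs, at log2 changes of -0.12 (SE 0.07, adjusted p = 0.268) with E2 plus fulvestrant against E2 and -0.15 (SE 0.07, adjusted p = 0.176) with fulvestrant against vehicle. Neither passed. Over the 15 fits that left out a library or a replicate number these changes ranged from -0.18 to -0.08 and from -0.21 to -0.08, respectively.

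The Id genes, as targets, were read in all samples. Id3 (ENSMUSG00000007872, chr4:136143497-136145755, plus strand) had a normalized count of 3055, 2584 and 2172 with vehicle, and of 2239, 1799.9 and 1766 with E2. It was 1326, 1549.9 and 1571 with E2 plus fulvestrant, and 1123, 1702 and 1802 with fulvestrant. Neither pair of groups, with and without fulvestrant, overlapped.

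Id3 fell by 0.77 on the log2 scale with fulvestrant against vehicle (SE 0.18, interval -1.17 to -0.37, adjusted p = 0.0160), or 1.71-fold, and was lower in 3 of 3 pairs. The adjusted p was 0.154 without the block, 0.0770 with only those groups in the fit, 0.113 without the samples numbered 2 and 0.0587 without vehicle replicate 1. Without the samples numbered 1 the change was -0.44 (adjusted p = 0.00347), and without fulvestrant replicate 1 it was -0.51 (adjusted p = 0.0259). With E2 plus fulvestrant against E2 the log2 change of Id3 was -0.38 (SE 0.18, adjusted p = 0.202), and it was -0.19 without the samples numbered 1 and -0.21 without E2 replicate 1.

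Id2 (ENSMUSG00000020644, chr12:25093799-25097140, minus strand) had a normalized count of 1967, 700.3 and 674 with vehicle, and of 1316, 489 and 514 with E2. It was 839, 378 and 414 with E2 plus fulvestrant, and 747, 397 and 462 with fulvestrant. Within each replicate number the vehicle sample was the highest, and replicate 1 lay above replicates 2 and 3 in each group.

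Id2 fell by 0.92 on the log2 scale with fulvestrant against vehicle (SE 0.13, interval -1.21 to -0.63, adjusted p = 0.00121, and 0.837 without the block), or 1.89-fold. It passed in 15 of 15 fits that left out a library or a replicate number, and without the samples numbered 1 the change was -0.68 (adjusted p = 0.000921). With E2 plus fulvestrant against E2 the log2 change was -0.44 (SE 0.13, interval -0.73 to -0.16, adjusted p = 0.0511), just outside the threshold. It passed in 5 of those 15 fits, namely without the samples numbered 1 (-0.34, adjusted p = 0.0441) and without vehicle replicate 1 or 3 or fulvestrant replicate 1 or 3 (adjusted p = 0.0112 to 0.0446). It also passed with a block of replicate 1 against replicates 2 and 3 (adjusted p = 0.0379), with only those groups in the fit (0.0305) and among genes with a mean of at least 100 (0.0489).

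Id1 (ENSMUSG00000042745, chr2:152736251-152737410, plus strand) had a normalized count of 1193, 633 and 621 with vehicle, and of 879, 532 and 507 with E2. It was 491, 489 and 465 with E2 plus fulvestrant, and 345, 562 and 739.5 with fulvestrant. The samples with E2 plus fulvestrant lay just below those with E2 without overlap, and the fulvestrant group spanned the vehicle values of replicates 2 and 3.

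The log2 change of Id1 was -0.36 (SE 0.31, adjusted p = 0.485) with E2 plus fulvestrant against E2 and -0.57 (SE 0.31, interval -1.24 to 0.11, adjusted p = 0.242) with fulvestrant against vehicle. Within the pairs of the latter it was -1.79, -0.17 and 0.25 for replicates 1, 2 and 3. Without the samples numbered 1 it was 0.04 (adjusted p = 0.847), so its sign depended on replicate 1. It was -0.08 without fulvestrant replicate 1, -0.25 without vehicle replicate 1, -0.93 without fulvestrant replicate 3 and -0.98 without the samples numbered 3. With E2 plus fulvestrant against E2 the change of Id1 was -0.12 both without the samples numbered 1 and without E2 replicate 1.

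**Figure D3:**
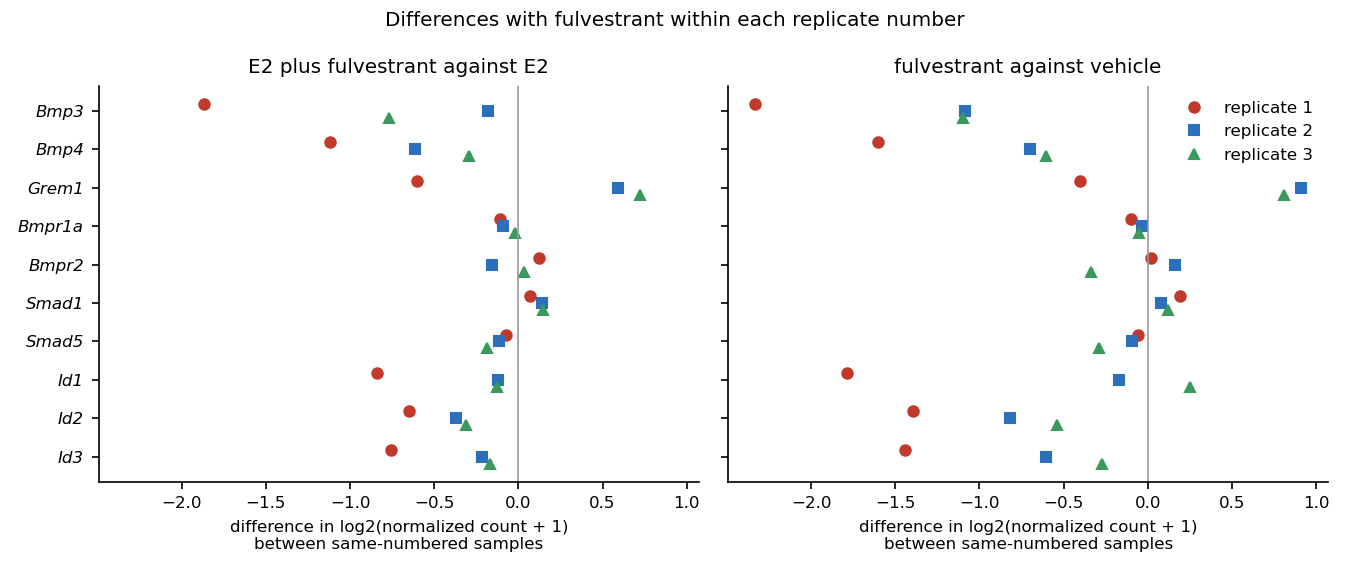
Difference in log2(normalized count + 1) between the fulvestrant-treated sample and its same-numbered partner, for the 10 members, with E2 (left) and without E2 (right). Each point is 1 pair. Replicate 1 is the lowest point for Bmp3, Bmp4, Grem1, Id1, Id2 and Id3 in both panels, and Grem1 is below 0 in replicate 1 and above 0 in replicates 2 and 3.

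In a test chosen after the values were seen, the change with fulvestrant differed between replicate 1 (1 sample per group) and replicates 2 and 3 in 6 of 10 members. Over both comparisons together, the difference in that change between replicate 1 and replicates 2 and 3 passed for Bmp3, Bmp4, Grem1, Id1, Id2 and Id3, beside 6.87% of all genes. Id3 had a log2 change of -1.10 in replicate 1 and -0.31 in replicates 2 and 3 (difference -0.79, SE 0.12, adjusted p = 0.00255). For Bmp4 it was -1.36 and -0.55 (difference -0.81, SE 0.15, adjusted p = 0.00678). Bmp3 gave -2.10 and -0.78 (difference -1.32, SE 0.25, adjusted p = 0.00889), and Id2 gave -1.02 and -0.51 (difference -0.51, SE 0.12, adjusted p = 0.0250).

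For Bmp3, Bmp4, Id2 and Id3 the sign was therefore the same in replicate 1 and in replicates 2 and 3, with a larger size in replicate 1. Id1 was at -1.31 in replicate 1 and at -0.04 in replicates 2 and 3 (difference -1.27, SE 0.24, adjusted p = 0.00794). Grem1 was at -0.50 and 0.76 (difference -1.26, SE 0.22, adjusted p = 0.00462). In replicate 1 Grem1 also differed by 0.68 between E2 and vehicle, which is larger in size than its change with fulvestrant there. Bmpr1a, Bmpr2, Smad1 and Smad5 did not pass, with differences of -0.05 to 0.15. Replicate 1 has 1 sample per group, and this test was chosen after the values were seen. The part of the cells that express the mural markers or Tek in it was not tested.

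E2 alone moved no member past the threshold. Against vehicle, 0 of 10 members passed with the block and 0 without it, beside 0.0756% (0.0756% rose, 0% fell) and 0.00756% of all genes. At an unadjusted p under 0.05 there were 3 members with the block and 1 without, beside 10.1% and 1.32% of all genes. Groups overlapped for 10 of 10 members, while 5.19% of all genes did not overlap. The log2 change was -0.50 for Id2 (SE 0.13, interval -0.78 to -0.21, adjusted p = 0.347), -0.42 for Id3 (SE 0.18, adjusted p = 0.476), -0.81 for Bmp3 (SE 0.31, adjusted p = 0.468), -0.28 for Bmp4 (SE 0.19, adjusted p = 0.637) and -0.33 for Id1 (SE 0.31, adjusted p = 0.726). Each of these 5 genes was lower with E2 in 3 of 3 pairs. For all but Id2 the size rested on single libraries. Id2 stayed between -0.62 and -0.35 in the 15 fits that left out a library or a replicate number. Without vehicle replicate 1 the change was -0.01 for Id1, -0.14 for Bmp4 and -0.24 for Id3, and without E2 replicate 1 it was -0.57, -0.50 and -0.59. Without E2 replicate 3 it was -0.12 for Bmp4 and -0.16 for Id1, without vehicle replicate 3 it was -0.52 for Id1, and without E2 replicate 2 it was -0.51 for Bmp3. Leaving out E2 replicate 1 gave -1.22 for Bmp3. With only the vehicle and E2 groups in the fit, Id2 (adjusted p = 0.0285) and Id3 (adjusted p = 0.0287) passed. Pgr rose by 1.88 in this comparison (SE 0.27, adjusted p = 0.0343, and 0.9999 without the block) and fell by 3.28 with E2 plus fulvestrant against E2 (adjusted p = 4.7e-05). It fell by 1.82 with fulvestrant against vehicle (adjusted p = 0.00148). For Bmp3, Bmp4, Id1, Id2 and Id3 the vehicle samples were thus the highest of their replicate number, except that Id1 in replicate 3 was higher with fulvestrant. The comparisons with E2 share the E2 samples and are given side by side only.

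In the presence of fulvestrant, E2 made no detectable difference. Between E2 plus fulvestrant and fulvestrant, 0 of 10 members passed with or without the block (0% and 0% of all genes). No member reached an unadjusted p under 0.05. Groups overlapped for 10 of 10 members, beside 2.42% of all genes without overlap. The log2 changes ranged from -0.24 for Bmp3 (interval -0.94 to 0.45) to 0.09 for Bmpr2 (interval -0.12 to 0.31). Leaving out a library or a replicate number moved them to between -0.62 (without fulvestrant replicate 1) and -0.04 (without E2 plus fulvestrant replicate 1 or fulvestrant replicate 3) for Bmp3 and to between -0.0021 (without fulvestrant replicate 3) and 0.16 (without fulvestrant replicate 1) for Bmpr2. Id1 was at -0.12, and at -0.61 and 0.24 without fulvestrant replicate 1 or 3. The intervals were narrow for Bmpr1a (-0.11 to 0.11) and wide for Id1 (-0.79 to 0.55) and Grem1 (-0.63 to 0.68), so changes of that size were not detectable in those genes.

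The interaction asks whether fulvestrant acted differently with and without E2. It passed for 0 of 10 members and for 0% of all genes with the block, and for 0 of 10 and 0% without it. Id2 alone had an unadjusted p under 0.05 with the block, at 0.47 (SE 0.19, adjusted p = 0.944), which is the smaller change of Id2 with E2 present (-0.44 against -0.92). This interaction ranged from 0.30 to 0.61 over the 15 fits that left out a library or a replicate number. A call with fulvestrant alone and none with E2 plus fulvestrant, as for Bmp3, Id2 and Id3, is therefore not shown to be a difference between the comparisons.

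Of 62 other genes of the pathway, fixed as a list by role, 46 were measured. With E2 plus fulvestrant against E2, 3 rose and 6 fell (19.57% of the list), and with fulvestrant against vehicle 4 rose and 8 fell (26.09%), beside 9.6% and 12.5% of all genes called in these comparisons. The median log2 change of the 46 genes was -0.02 and 0.02, close to the 0.01 and 0.01 of all genes. Without the block 0 of 46 passed in any comparison, with 3, 7, 0 and 0 at an unadjusted p under 0.05 for E2 plus fulvestrant against E2, fulvestrant against vehicle, E2 against vehicle and E2 plus fulvestrant against fulvestrant. With the block the unadjusted counts were 20, 22, 3 and 0 of 46, beside 27.3%, 30.5%, 10.1% and 1.93% of all genes, and 0 passed in the last pair of comparisons. In the values that follow, the first is E2 plus fulvestrant against E2 and the second fulvestrant against vehicle, on the log2 scale. All are from the fit with the block, and fits that left out samples were not examined for these genes.

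Among the 4 measured ligand genes, Bmp6 rose by 0.51 (adjusted p = 0.0347) and 0.50 (adjusted p = 0.0323). Gdf10, which encodes a TGF-β family ligand also called BMP3B and close in sequence to BMP3, fell by 1.75 (adjusted p = 0.00196) and 1.55 (adjusted p = 0.00330). Receptor genes passed for 3 and 4 of 9. Acvrl1, encoding the type I receptor ALK1 that binds BMP9 and BMP10, rose by 0.69 and 0.68 (adjusted p = 0.00289 and 0.00249). Bmpr1b, a BMP type I receptor gene closely related to Bmpr1a, fell by 0.84 and 0.94 (adjusted p = 0.0411 and 0.0212). The type II receptor gene Acvr2a fell by 0.28 and 0.37 (adjusted p = 0.00887 and 0.00156). Rgma, a BMP co-receptor gene, was at 0.18 (adjusted p = 0.187) and rose by 0.30 in the second comparison (adjusted p = 0.0314).

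Of the 13 measured secreted antagonists and modulators, 3 passed in each comparison. Chrd, encoding the BMP-binding antagonist chordin, rose by 0.75 and 0.64 (adjusted p = 0.00235 and 0.00470). Twsg1, whose product binds chordin and BMPs together, fell by 0.40 and 0.32 (adjusted p = 0.000351 and 0.00126). Fstl1, encoding follistatin-like 1 and the last of the 3 in the first comparison, fell by 0.30 there (adjusted p = 0.0480) and was at -0.18 in the second (adjusted p = 0.185). It lay just outside the rule for named genes and is given to complete the count. Chrdl1, encoding chordin-like 1, was at -0.03 (adjusted p = 0.910) and fell by 0.43 in the second comparison (adjusted p = 0.0441). Of the 13 Smads and Smad regulators, 0 passed in the first comparison (3 at an unadjusted p under 0.05) and 1 in the second. This was Smad9, the third BMP-activated Smad gene and itself a target of the pathway, at -0.33 (adjusted p = 0.320) and then -0.77 (adjusted p = 0.0254).

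Of the 4 other measured target genes, 1 passed in the first comparison and 2 in the second, all lower. Id4, the remaining Id gene, fell by 1.25 and 1.18 (adjusted p = 0.00709 and 0.00768) from a mean of 97.1 normalized counts. Atoh8, a BMP-induced transcription factor gene, was at -0.48 (adjusted p = 0.126) and fell by 1.04 in the second comparison (adjusted p = 0.00467). Runx2 and Hes1, the other two, passed in neither. The E protein genes, whose products Id proteins bind, passed in 0 of 3 in each comparison (1 and 0 at an unadjusted p under 0.05). Between replicate 1 and replicates 2 and 3, 29 of the 46 pathway genes passed, 15 higher and 14 lower in replicate 1, beside 52.4% of all genes. Among the genes named here, Gdf10 was at -3.02 (adjusted p = 2.6e-07), Smad9 at 1.99 (adjusted p = 8.0e-07) and Bmpr1b at 1.49 (adjusted p = 2.3e-05).

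**Figure D4:**
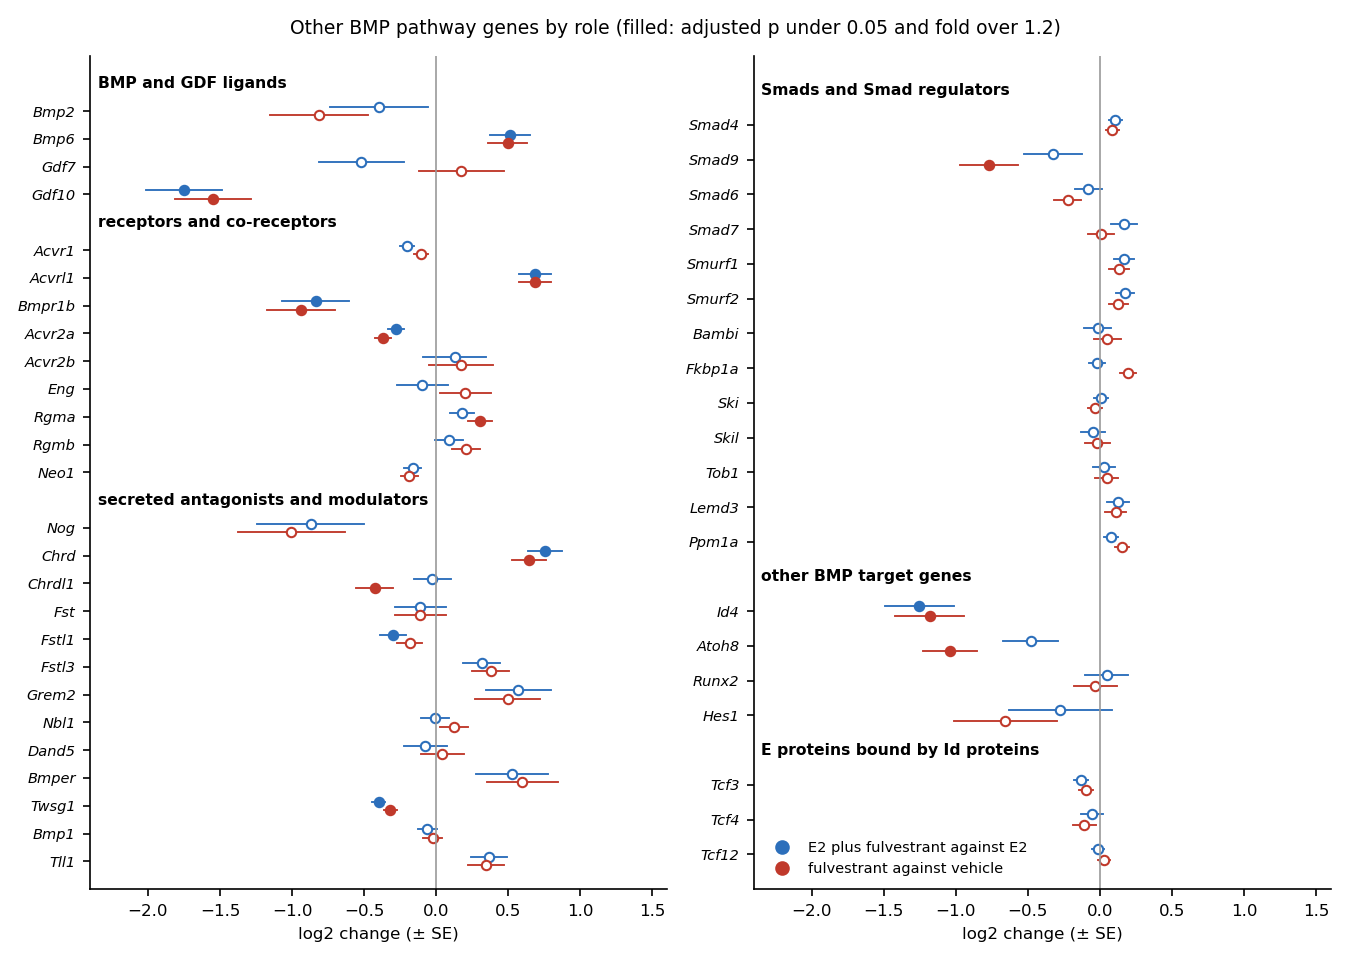
Log2 change of the 46 other measured pathway genes, by role, with E2 plus fulvestrant against E2 (blue) and with fulvestrant against vehicle (red). Points are estimates, bars are ± SE, and filled points passed at adjusted p under 0.05 and fold over 1.2. Gdf10 and Id4 lie lowest, Chrd and Acvrl1 lie highest among filled points, and no Smad regulator is filled except Smad9 in red.

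The genes whose pattern was most like that of 3 members are given as a description, by Pearson's r of log2 values over the 12 samples after each replicate number's mean was subtracted. For Bmp4 they were Hs6st2 (r = 0.991), Ak5 (r = 0.988) and Colec12 (r = 0.987). Grem1 was most like Gm12918 (r = 0.957), Rce1 (r = 0.946) and Nuf2 (r = 0.940), and Id1 was most like Trabd2b (r = 0.982), Jag1 (r = 0.972) and Dapp1 (r = 0.941). Jag1 encodes a Notch ligand. The 12 points share 4 treatments and 3 replicate numbers, and each gene named is among the highest of all 13233 in its comparison.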

How the data were processed

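RNA was measured by RNA-Seq in 12 samples of primary HAFs. Per the labels and the study's methods, the authors made ribosome-depleted libraries, trimmed reads with Trimmomatic 0.39, removed ribosomal reads, aligned to mm10 with STAR 2.5.2, counted reads by gene and strand with HTSeq 0.13.5, dropped counts below 10 and used DESeq2 1.37 to normalize to the median of ratios. The study also names a reduction of batch variation. Each deposited value is a signal, the normalized count of a gene in a sample. All values (100%) were whole numbers of reads, within 0.001, once multiplied by one factor per sample, at 10 reads or more.

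Of 13233 identifiers, 13149 had a symbol in the GENCODE M21 annotation of GRCm38. Log2(value + 1) was fitted with limma 3.58.1 in R 4.3.3 on all 12 samples, with group and replicate number as terms and a variance trend. Folds are on that scale and understate changes of low genes. The Benjamini-Hochberg adjustment ran over the whole table, and calls needed an adjusted p under 0.05 and a fold over 1.2. The replicate numbers come from the sample labels. Deviations from the group means were correlated between samples of the same number (r = 0.63 to 0.92 over 18 pairs, -0.86 to 0.79 over the 36 other pairs). These ranges overlap, and the samples numbered 1 stood apart in every group. The correlations therefore do not show that the numbers 2 and 3 pair samples across groups. The fit was also run on simulated data in which the treatment change was the same in every replicate. That setting differs from these data, so the run lends no weight to the calls. Tables were handled in Python 3.11.15 (pandas 2.3.3, numpy 2.4.6) and drawn with matplotlib 3.10.9. The promoter windows are from RefSeq on GRCm38.p6.

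The members, the pathway list, the markers and the tests were chosen with earlier results of these data known. Named were all members, up to 12 called pathway genes by smallest adjusted p, Pgr, and the 3 genes most correlated with each of Bmp4, Grem1 and Id1. Alternatives were no block, a block of replicate 1 against the others, only the groups compared, pseudocounts of 0.5 and 10, a mean of at least 100, quantile normalization, CPM, no variance trend, adjusted p alone, and leaving out each library or replicate number.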

Additional observations from a re-analysis of the deposited data

How the results depend on the processing

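The 10 members in 4 comparisons and the interaction gave 50 log2 changes, each refitted under up to 25 alternatives (1240 values). Of these, 1205 kept their direction and side of the threshold or were changes that did not pass in either fit, 21 no longer passed, 14 newly passed and 0 reversed a change that passed, and 88 changed sign without passing, 81 of them on leaving out samples. The number of members called with E2 plus fulvestrant against E2 was 1, and it was 0 with no replicate block, 2 with a block of replicate 1 against replicates 2 and 3, 2 with only those groups in the fit, 2 among genes with a mean of at least 100, 0 without a variance trend and 0 to 3 on leaving out libraries. With fulvestrant against vehicle it was 4, and it was 0 with no replicate block, 3 with only those groups in the fit and 2 to 5 on leaving out libraries. With E2 against vehicle it was 0, and 2 with only those groups in the fit. The block changed no call in the other comparisons. The causes were not tested. Over all genes, calls with E2 plus fulvestrant against E2 numbered 1270, with 69 without the block, 342 and 316 without the samples numbered 2 or 3 and 1611 without those numbered 1. With fulvestrant against vehicle they numbered 1648, with 72 without the block, 692 with only those groups, 540 and 399 without the samples numbered 2 or 3 and 2312 without those numbered 1. With E2 against vehicle they numbered 10, and 0 to 59 over the alternatives. Scaling to CPM moved the share of calls that were higher with fulvestrant against vehicle from 54.3% to 42.0%, and no median over all genes by more than 0.04. The planned count tests with edgeR and DESeq2 were not run. The interaction could not be fitted with 2 groups only. With 3 samples a group, Bmp3 outside replicate 1 (30.6 to 98.4 normalized counts) rested on as few as 28 reads.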
